A study of Mus musculus with 10 samples.

Results

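Cathepsins are the proteases of the lysosome, and cystatin C is a secreted inhibitor of the cysteine cathepsins. The genes described are 9 cathepsins (Ctsa, Ctsb, Ctsc, Ctsd, Ctsh, Ctsk, Ctsl, Ctss and Ctsz) and Cst3, which encodes cystatin C. They were chosen by name, as rows of the deposited gene table with these symbols, and all 10 were found among 25232 listed genes. The rule itself uses symbols only.

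RNA of the spinal cord was sequenced from 5 WT and 5 SOD1 G93A female mice on the C57BL/6 strain, all at 90 days of age. The methods of the study name the lumbar cord, and the sample labels give no region. SOD1 G93A mice carry many copies of a mutant human SOD1 gene under its own promoter, a model of amyotrophic lateral sclerosis (ALS) in which the mutant protein is overexpressed in all tissues, and the WT mice were littermates without the transgene. The value used for each gene is the base mean, which is the authors' mean of normalised read counts over all 10 libraries, both genotypes together. Levels in WT and in SOD1 G93A mice therefore cannot be told apart here, no spread between mice is given, and no difference between genes or genotypes was tested.

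Cathepsins are made as inactive precursors, are carried to the lysosome by sorting receptors and become active at acid pH, where they degrade proteins delivered by endocytosis and autophagy. Most are cysteine proteases of the papain family, cathepsin D is an aspartic protease, and cathepsin A is a serine carboxypeptidase. In the central nervous system they are found in neurons and glia, microglia are rich in cathepsin S, and cystatin C is released into the cerebrospinal fluid.

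The 10 genes together held 0.272% of the summed base mean of 22158933 normalised counts. The median gene had a base mean of 247 among the 20973 genes above 0, and 7 of the 10 genes lay above 1000. Because long transcripts give more reads, levels of different genes were compared as base mean per kilobase of all annotated exons. On this scale the median was 63.4 over the 20399 genes above 0 with a length, and 9 of the 10 genes lay above it. That count was 7 among genes with a base mean of 10 or more, and 10 on the longest transcripts or with genes at 0 included.

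Cst3 stood first with 13197 base mean per kilobase, the rank of 15 among 20399 genes. Ctsd followed with 5998 per kilobase at rank 69, and Ctsb with 3093 per kilobase at rank 179. These 3 genes lay above the 99th percentile of the genes above 0, which was 2840 per kilobase. Ctsb fell just below that percentile, at 98.9, over RefSeq-linked exons and among genes with a base mean of 10 or more. Ctss, Ctsz, Ctsa and Ctsl formed a middle range from 1856 to 412 per kilobase. Ctsk, Ctsh and Ctsc were lowest, from 107 to 50.9 per kilobase, close to the median gene. From the highest to the lowest gene the level per kilobase differed 259.5-fold.

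**Figure D1:**
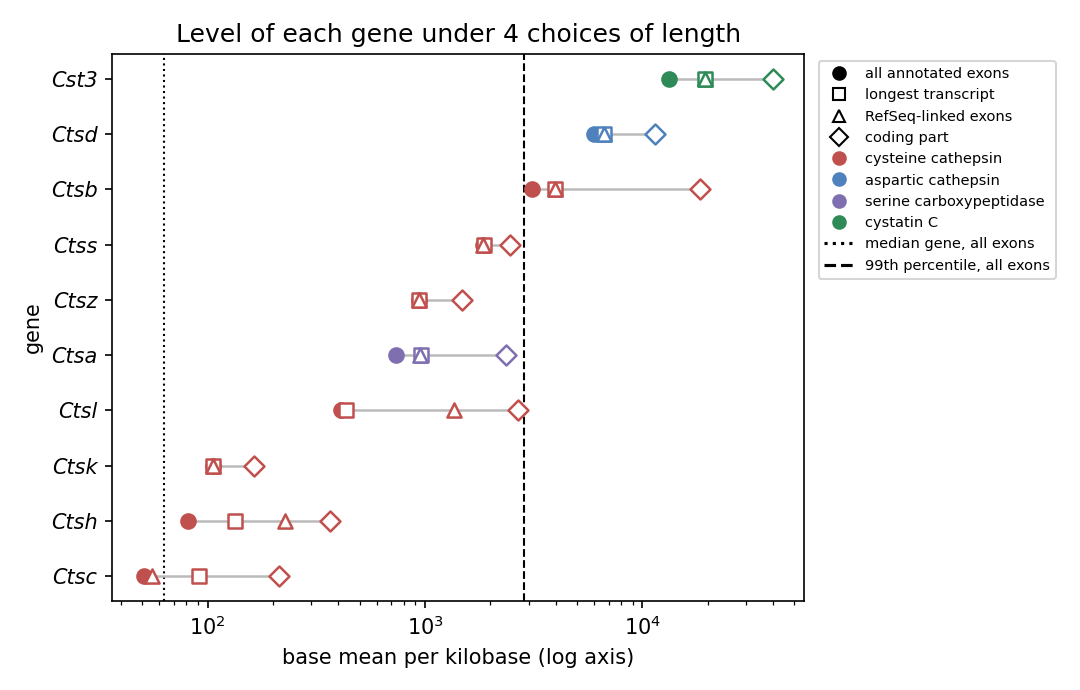
Base mean per kilobase of the 9 cathepsins and Cst3 on a log axis, with 1 row a gene and 1 marker for each of 4 choices of gene length (filled circles, all annotated exons; squares, longest transcript; triangles, exons of RefSeq-linked transcripts; diamonds, coding part); colours mark the type of gene, and vertical lines mark the median and the 99th percentile of the genes above 0 over all annotated exons. Cst3 is highest under each choice, and Ctsl moves most between the first 3 choices, from 412 to 1355 per kilobase.

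The order depended in part on the length chosen. Of the 45 pairs of genes, 38 kept their order under all 4 lengths tried, and 7 did not. Those 7 were Ctsd and Ctsb, Ctss and Ctsl, Ctsz and Ctsa, Ctsz and Ctsl, Ctsa and Ctsl, Ctsk and Ctsh, and Ctsk and Ctsc. They were named once the values were known, and their order is not settled by these data.

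Ctsd encodes the main aspartic endopeptidase of the lysosome. Its base mean was 14100, or 23.4% of the base mean of the 10 genes. Per kilobase it made up 45.2% of the 9 cathepsins over all annotated exons and 29.0% on the coding part. Its level per kilobase was 1.94-fold that of Ctsb over all annotated exons and 0.623-fold on the coding part alone, so these 2 genes exchange places with the length.

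The 7 cysteine cathepsins summed to 6538 base mean per kilobase, which was 49.2% of the 9 cathepsins. On the coding part their share was 65.1%. Ctsb, an endopeptidase that also removes dipeptides from the carboxyl end, supplied 47.3% of the cysteine cathepsin level per kilobase over all annotated exons and 71.5% on the coding part. Its base mean of 18714 was the highest of the 10 genes before length was taken into account. Ctsb and Ctsd together gave 68.5% of the level per kilobase of the 9 cathepsins.

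Ctsl encodes an endopeptidase of broad specificity. Its base mean was 2671, and its level was 412 per kilobase over 6489 bases of annotated exon. Over the 1971 bases of its RefSeq-linked transcripts the level was 1355 per kilobase. This 3.29-fold step between the 2 lengths was the largest of the 10 genes, followed by 2.78-fold for Ctsh. Ctss encodes an endopeptidase that stays active at neutral pH and cleaves the invariant chain in antigen-presenting cells. Its base mean was 2521, with 1856 per kilobase over all annotated exons and the same level over RefSeq-linked exons. Ctsk, known for the degradation of bone collagen by osteoclasts, had a base mean of 161 and a level of 107 per kilobase. Ctss was 17.4-fold higher than Ctsk per kilobase, and from 15.1-fold to 17.5-fold higher over the 4 lengths.

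Ctsz, Ctsh and Ctsc are exopeptidases of the same family. Ctsz, a carboxypeptidase, had a base mean of 1352 and a level of 938 per kilobase. Ctsh, an aminopeptidase, had a base mean of 366, with 81.4 per kilobase over all annotated exons and 227 per kilobase over RefSeq-linked exons. Ctsc, the dipeptidyl peptidase that activates granule proteases of immune cells, had a base mean of 295 and was the lowest of the 10 per kilobase over all annotated exons. Its level was 50.9 per kilobase on that scale, at the 46.3rd percentile of the genes above 0, and 91.7 per kilobase of the longest transcript, at the 51.5th percentile.

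Ctsa encodes the serine carboxypeptidase that also protects β-galactosidase and neuraminidase in a lysosomal complex. Its base mean was 3485 and its level 739 per kilobase, or 5.57% of the 9 cathepsins. The enzymes it protects, named here for that complex after their values were seen, were lower. Neu1 had 383 per kilobase and Glb1 206 per kilobase, so Ctsa was 1.93-fold and 3.58-fold higher.

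Cst3 encodes cystatin C, which binds papain-like cathepsins tightly and reversibly and does not inhibit cathepsin D. Its base mean was 16708, or 27.7% of the base mean of the 10 genes, and 49.9% of their level per kilobase. Set against the summed level of the 9 cathepsins, Cst3 was at 0.994-fold over all annotated exons and at 1.29-fold on the longest transcripts. Set against the 7 cysteine cathepsins alone, which are its targets, it was at 2.02-fold, with a range from 1.55-fold to 2.59-fold over the 4 lengths. Without a length correction the direction against the cysteine cathepsins turned, with Cst3 at 0.641-fold of their level. Against all 9 cathepsins, Cst3 was already at 0.994-fold over all annotated exons and was at 0.383-fold without a length correction. These are ratios of transcript levels, and protein or enzyme activity was not measured in these libraries.

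Genes close to Cst3 in level over all annotated exons are given for scale. Above it were Nefl with 14045, Eef1a2 with 13670, Eef1a1 with 13494 and Gfap with 13345 base mean per kilobase. On the same scale, just below it were Aldoc with 12996, Cplx1 with 12969, Atp1b1 with 12585, Mobp with 12482 and Hsp90ab1 with 12044. Gfap, the intermediate filament of astrocytes, differed least from Cst3 on this scale, yet over RefSeq-linked exons Cst3 was 1.41-fold higher than Gfap.

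The other 14 mouse cathepsins on the list had lower levels in sum. Ctsf was the highest of them with 315 per kilobase over all annotated exons and 801 over RefSeq-linked exons, and Ctso had 198 per kilobase. Ctsw of lymphocytes had 6.74, Ctse 2.80 and Ctsg of granulocytes 0.641 per kilobase. The other 9, Ctsj, Ctsm, Ctsq, Ctsr, Cts3, Cts6, Cts7, Cts8 and Ctsll3, which belong to a group expressed in the placenta of rodents, were listed at 0. Of the level per kilobase of all 23 cathepsins, the 9 described here held 96.2% over all annotated exons and 93.5% over RefSeq-linked exons. Ctsf was 2.95-fold higher than Ctsk on the first scale and 7.52-fold higher on the second. A value of 0 need not mean absence, since Rpl26, a ribosomal gene that all cells use, was also listed at 0.

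Among 19 other cystatins and related inhibitors, 11 were above 0 and 8 were listed at 0. Cstb, which encodes the intracellular inhibitor stefin B, was highest with 743 per kilobase, and Cst3 was 17.8-fold above it. Cst7, the inhibitor cystatin F of immune cells, had 32.9 per kilobase, and Cst6 had 16.5 per kilobase. Cst3 held 94.2% of the summed level per kilobase of all 20 genes. The median of the 19 others, those at 0 included, was 0.180 per kilobase.

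Inhibitors outside the cystatin family spanned a wide range. All 7 on the list were above 0, from 16.9 to 1251 per kilobase with a median of 139. Serpina3n, a secreted serpin, was highest with 1251 per kilobase, above Cstb by 1.68-fold. Serpinb1a had 413, Serpinb6a 207 and Serping1, the inhibitor of complement C1, 139 per kilobase. Over RefSeq-linked exons Serpinb6a had 559 per kilobase.

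Genes listed as partners of cathepsins in the lysosome were all above 0, with a median of 454 per kilobase over 15 genes. Psap, the precursor of the saposins, was highest with 14496 per kilobase, which was 2.42-fold the level of Ctsd. Lgmn, the asparaginyl endopeptidase that processes cathepsin precursors, had 2314 per kilobase. Next in level, Sort1 and Scarb2 had 1382 and 1145 per kilobase. In this list 2 of 15 genes, Psap and Lgmn, lay above Ctss.

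All 18 genes of the lysosomal membrane and of the acid hydrolases were above 0 too, with a median of 422 per kilobase. Lamp1, an abundant protein of the lysosomal membrane, had 5752 per kilobase, against 5998 for Ctsd. Over RefSeq-linked exons the order was the opposite, with Ctsd at 0.960-fold of Lamp1. The proton pump genes Atp6ap1 and Atp6v0d1 had 2453 and 2420 per kilobase, and Gaa, the acid glucosidase, had 2244. The lowest of this list, chosen after its value was seen, was the proton pump gene Atp6v0c with 16.3 per kilobase over all annotated and 46.7 over RefSeq-linked exons. Only reads with a unique position were counted, and sequences shared with other genes were searched for the 10 genes only. Whether reads of Atp6v0c were lost in this way was not tested, so its low value need not mean low expression.

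Of the 4 transcription factors that drive lysosomal genes, 3 were near the median of the genes above 0 over all annotated exons. Tfeb had 103, Tfe3 96.0 and Mitf 61.8 base mean per kilobase, whereas Tfec had 0.0877. Over RefSeq-linked exons Tfeb had 204 and Tfe3 253 per kilobase. The median of these 4 genes was 78.9 per kilobase.

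**Figure D2:**
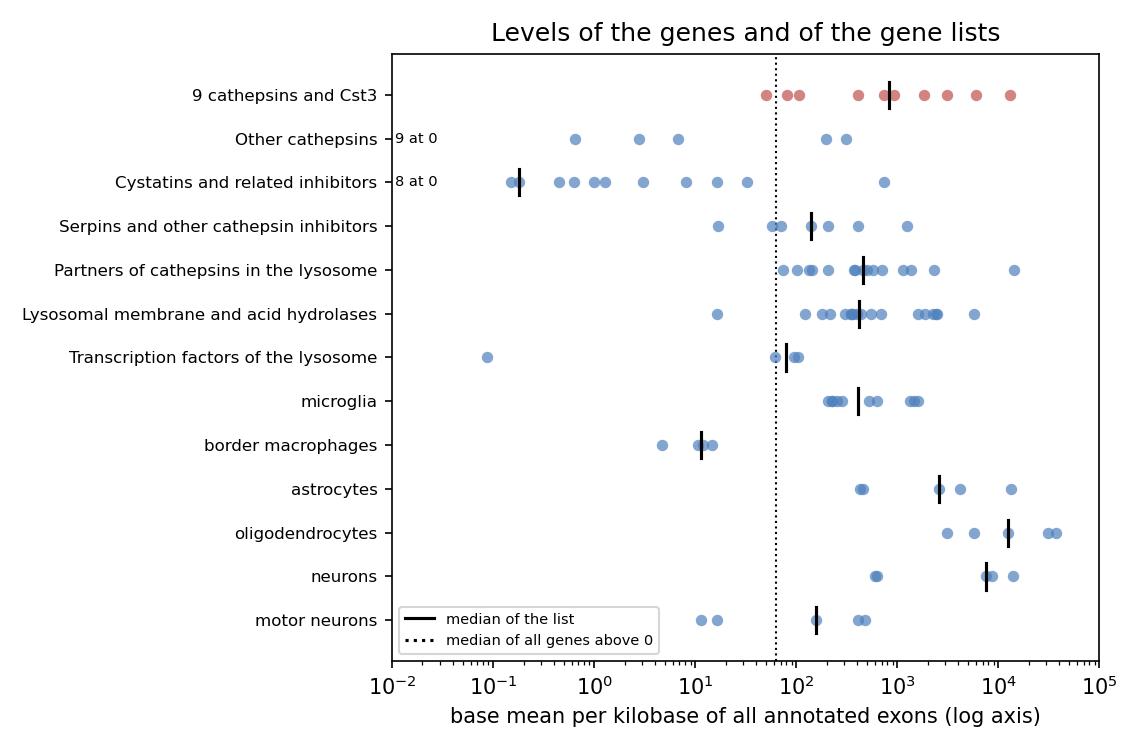
Base mean per kilobase of all annotated exons on a log axis for the 9 cathepsins and Cst3 (red) and for genes of 12 other lists (blue), with 1 point a gene, short bars at the list medians, where these are above 0, and a dotted line at the median of all genes above 0; genes listed at 0 are given as counts at the left. The median of the 10 genes, 839 per kilobase, lies above those of the lysosomal lists, 454 and 422 per kilobase, and below those of astrocyte, oligodendrocyte and neuron markers.

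The samples are whole tissue, so a high level may come from many cells or from much RNA per cell, and these cannot be told apart. Markers of the cell types of the cord were present. All 5 oligodendrocyte markers were above 0 with a median of 12482 per kilobase, led by Mbp with 37739, and Mag had 5700 over all annotated exons and 9536 over RefSeq-linked exons. The 5 neuron markers had a median of 7556. Nefl had 14045 per kilobase on both scales, and Snap25 had 8695 over all annotated exons and 26432 over RefSeq-linked exons, so which of them leads depends on the length. The 5 astrocyte markers had a median of 2577 per kilobase, led by Gfap and by Slc1a2 with 4207. Over all annotated exons Cst3 lay just below Nefl and Gfap, and Mbp was 2.86-fold above it.

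All 10 microglia markers were above 0, with a lowest value of 207 per kilobase and a median of 405. Among them, C1qa had 1458, C1qb 1326 and C1qc 635 per kilobase (1019 for C1qc over RefSeq-linked exons), which encode the chains of complement C1q. Ctss, at 1856 per kilobase, was above all 10 of them and 1.27-fold above C1qa. Markers of border macrophages were far lower, from 4.65 to 14.7 per kilobase over 4 genes, of which Pf4 was highest.

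Motor neuron markers were present as well. Slc18a3 had 485, Slc5a7 410, Chat 156 and Mnx1 16.6 per kilobase, with a median of 156 over 5 genes, and Chat had 257 over RefSeq-linked exons. Endothelial markers had a median of 167 per kilobase over 3 genes, led by Cldn5 with 501. Oligodendrocyte precursor markers were lower, with Pdgfra at 133 and Cspg4 at 63.3 per kilobase. The 3 fibroblast and meningeal markers ranged from 66.9 to 112 per kilobase, and Dcn was highest, with 338 over RefSeq-linked exons.

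Markers of cells from outside the cord were measured in the same way. The Schwann cell marker Pmp2 had 15.3 per kilobase. Skeletal muscle markers ranged from 14.0 to 163 per kilobase over 3 genes, with Acta1 highest. Neutrophil markers ranged from 0.616 to 118 per kilobase over 4 genes, led by S100a9, with the defining marker Ly6g lowest. T cell markers did not exceed 1.38 per kilobase, the level of Cd4, and the hepatocyte marker Alb had 19.97. The osteoclast markers Acp5 and Calcr had 6.09 and 5.09 per kilobase, and Ctsk was 17.5-fold above Acp5. All 4 red blood cell genes, Hbb-bs, Hbb-bt, Hba-a1 and Hba-a2, were listed at 0, which, as for Rpl26, need not mean absence. What part any of these cells had in the cathepsin levels was not tested.

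The 10 genes lie on 6 chromosomes of the mouse genome build GRCm38 (mm10). Cst3 (chr2:148871722-148875692), Ctsa (chr2:164832873-164841032) and Ctsz (chr2:174427493-174439039) are on chromosome 2. Ctsc (chr7:88278085-88310888) and Ctsd (chr7:142375911-142388038) are on chromosome 7. Ctsh (chr9:90054152-90076089), Ctsl (chr13:64359337-64370890) and Ctsb (chr14:63122462-63145923) are the only genes of the 10 on chromosomes 9, 13 and 14. Ctsk (chr3:95499256-95509362) and Ctss (chr3:95526786-95556403) are neighbours on the plus strand of chromosome 3, with 17423 bases and no other protein-coding gene between them. This neighbouring pair is the one that differs 17.4-fold in level per kilobase.

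For some of the genes, reads could also belong to another gene. Ctsd shares 808 of its 2351 exon bases with Gm49369, a gene model on the same strand, and 35.0% of the 100-base windows of its main transcript, the length of a read, occur in that model too. Ctsb overlaps Fdft1 on the opposite strand over 774 bases, with 14.5% of its windows shared. Ctsa overlaps Pltp over 495 bases and Neurl2 over 324 bases, both on the opposite strand, with 11.6% of its windows shared. Ctsz overlaps Nelfcd on the opposite strand over 10 bases.

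The base means of these neighbours were 3080 for Fdft1, 2242 for Pltp, 99.7 for Neurl2 and 1005 for Nelfcd. Ctsl shares 1742 exon bases with the antisense model Gm47123 and 395 with the pseudogene Gm49230, but none of the windows of its main transcript. The symbols Gm49369, Gm47123 and Gm49230 matched 0 of the 25232 listed genes, and no value of these models was analysed here. Cst3, Ctsc, Ctsh, Ctsk, Ctsl, Ctss and Ctsz had 0 windows in common with transcripts of other genes. The libraries were stranded, but the strand setting of the counting is not given in the sources used here, so how reads of the parts with a gene on the opposite strand entered the base means of Ctsa, Ctsb, Ctsl and Ctsz is uncertain. For the same-strand overlaps of Ctsd and Ctsl no strand setting separates the reads, and the annotation used in the counting is not given either.

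The coding sequence at the active site separates the types of enzyme by which the levels were grouped, and it is shown for that reason. For each cysteine cathepsin 30 bases are given around the codon of the catalytic cysteine, which is in capitals. The codon was TGC in 4 genes and TGT in 3, and a tryptophan codon followed it in 6 genes and a tyrosine codon in Ctsc. Over the 7 windows 8 of 30 positions held the same base, and any 2 windows shared from 13 to 23 bases. The highest number, 23, was shared by Ctsb and Ctsl, by Ctsk and Ctss, and by Ctsk and Ctsl. Per kilobase, Ctss was above Ctsk by 17.4-fold over all annotated exons. Over the 4 lengths, Ctsl was above Ctsk by 3.86-fold to 16.3-fold, and Ctsb was above Ctsl by 2.91-fold to 9.11-fold.
Ctsb (chr14:63135705-63136418, plus strand, across exons 4 and 5): tcctgcggctctTGTtgggcatttggggca
Ctsl (chr13:64367060-64367089, minus strand, exon 5): cagtgcgggtctTGTtgggcgtttagcgca
Ctss (chr3:95545336-95545365, plus strand, exon 5): tcttgtggtgccTGCtgggctttcagtgct
Ctsk (chr3:95502585-95502614, plus strand, exon 5): cagtgtggttccTGTtgggctttcagctct
Ctsz (chr2:174438181-174438210, minus strand, exon 2): tactgtggttccTGCtgggcccacggcagc
Ctsh (chr9:90064510-90064539, plus strand, exon 6): gcctgtggcagcTGCtggactttctctacc
Ctsc (chr7:88308015-88308044, plus strand, exon 6): tcttgtggaagcTGCtactcatttgcctct

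The same stretch is given for the other 3 genes. In Ctsd the capitals mark the codon of the first catalytic aspartate, in Ctsa that of the catalytic serine, and in Cst3 the codons of the first loop with which cystatin C enters the active site of its targets. The Cst3 stretch runs across the junction of exons 1 and 2.
Ctsd (chr7:142383464-142383493, minus strand, exon 3): acagtcgtctttGATactggctcctctaac
Ctsa (chr2:164835231-164835260, plus strand, exon 7): ctgacaggagagAGCtatgctggcatctac
Cst3 (chr2:148872916-148875167, minus strand, exons 1 and 2): agagctcgtaagCAGCTCGTGGCTGGAgtg

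Promoters from RefSeq (GRCm38.p6), 250 bases before to 50 bases after a gene's start, were matched for 8 of the 10 genes, all but Ctsb and Ctsh, with 9 promoters in all, 2 of them of Ctsa. They were searched on both strands for CACGTG, the core of the element that TFEB binds, for its extension TCACGTGA, and for GAGGAAGT, bound by the macrophage factor PU.1. CACGTG was present in 3 of the 9 promoters, those of Ctsd, Ctsl and the second of Ctsa, against 7.15% of 32851 mouse promoters. TCACGTGA, which contains the first motif, was present in 2 of the 9, Ctsd and Ctsa, against 0.974% of all. GAGGAAGT was present in those of Ctsc and Ctss, against 3.20% of all. These are matches of letters only, and binding was not measured.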

How the data were processed

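The authors removed short and low-quality reads with Fastp, aligned the rest to mm10 with HISAT2 2.1.0, assigned reads with a unique position to genes with featureCounts 2.0.2 and compared the genotypes with DESeq2. The base mean, a signal deposited by the authors, is the mean over all libraries of counts divided by size factors. The other 5 columns of the table hold the authors' own comparison (fold change, its error, test statistic and p-values) and were not used. Depth per library is unknown, and no test was run.

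Symbols were matched to GENCODE M21 (GRCm38), with 24355 of 25232 matched; the longest gene was taken where a symbol was shared. Base means were divided by the union of a gene's annotated exons. Alternatives were the longest transcript, the coding length, no length, a base mean of at least 10, all listed genes including those at 0, and the omission of mitochondrially encoded genes. Exons of RefSeq-linked transcripts and the motifs were chosen after seeing the data. The genes and lists were chosen with earlier results of these data known. All 10 genes, the 4 highest genes of each list, all listed cathepsins and cystatins, and the 5 genes on either side of the highest gene could be named; a few of these are not reported here. Percentiles, lengths and sequence matches were tested on simulated data. Python 3.11.15, numpy 2.4.6, pandas 2.3.3, scipy 1.17.1, matplotlib 3.10.9 and Biopython 1.88 were used.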

Additional observations from a re-analysis of the deposited data

How the results depend on the processing

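The share of the 10 genes in the summed base mean was 0.272%, also without mitochondrially encoded genes, of which 0 were listed, and 0.273% when genes under a base mean of 10 were left out, but 0.521% of the summed level per kilobase. The share of Cst3 among the 10 genes was 49.9% over all exons and 50.1% on the coding length, and it moved to 56.3% on the longest transcripts, 54.7% over RefSeq-linked exons and 27.7% without length. The share of the cysteine cathepsins among the 9 cathepsins moved from 49.2% to 49.7%, 65.1%, 52.8% and 59.7% on the longest transcripts, the coding length, RefSeq-linked exons and without length. With the longest transcripts, RefSeq-linked exons, no length, all listed genes, or only genes that reach a base mean of 10 (the coding length was not run for this), the lowest percentile among genes was 99.5 for Cst3, 99.3 for Ctsd, 98.9 for Ctsb, 90.2 for Ctss and 91.3 for Ctsa. Ctsz ranged from 80.6 to 95.7, Ctsl from 82.5 to 94.99, Ctsk from 44.7 to 66.3, Ctsh from 40.6 to 67.5 and Ctsc from 30.4 to 55.03. The cause was not tested. No paired analysis was possible because the base mean pools all libraries, and for the same reason no library could be left out in turn.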
